A study of Mus musculus with 21 samples.

Results

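The response of mouse embryonic stem cells to loss of Trim71 was measured in 2 experiments of the same series, and the values below describe how far that response differed between them. It was taken from 12 of the 21 libraries, 3 in each of 4 groups, and the difference was the knockout minus control contrast of Experiment 2 minus that of Experiment 1, on the log2 scale. In Experiment 1 the control was W, the parental cells, and the knockout was Trim71KO, Trim71-/- cells, both without a plasmid in their labels. In Experiment 2 the control was T6B_MUT, the unedited line transfected with the plasmid pCIP FH-T6B_MUT::mCherry, and the knockout was Trim71KO_empty, Trim71-/- cells transfected with an empty plasmid. All groups derived from 1 ES cell line of 129S6/SvEvTac background that carries the reporter GFP_5xT71BS and, stably, FLAG-Cas9::T2A::Blasticidin, and were cultured on gelatin with serum and LIF. The labels do not say whether the edited line was 1 clone. Transfection, the plasmid insert, the culture and the control differed together between the experiments, so their parts in any difference cannot be told apart.

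TRIM71, also known as LIN-41, is an RNA-binding protein of stem and progenitor cells that recognises stem-loops in the untranslated regions of messenger RNAs and lowers their translation or stability. T6B is a peptide from the GW182 protein TNRC6B that binds Argonaute proteins and so competes with endogenous GW182 proteins, the adaptors of microRNA silencing, and T6B_MUT is the series' mutant form of it. Cultures of ES cells in serum with LIF are mixtures: most cells express Pou5f1, Sox2 and Nanog, and a few pass through states that resemble the 2-cell embryo or the primitive endoderm.

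The 12 libraries held between 33910145 and 57872324 counted reads. Pou5f1, which encodes the transcription factor OCT4, was between 889 and 1354 CPM in all of them, where CPM is a gene's counts scaled to the same library total in every library. Genes shorter than 500 bases took 5.98% of the counts in Trim71KO_empty replicate 2, against 9.3% and 8.8% in its 2 partner libraries, and between 6.2% and 7% in T6B_MUT. The replicates are biological per the series' design text. Levels below are CPM for each library in replicate order, responses are log2 fold changes ± SE, and a gene is said to be called where the adjusted p of edgeR's quasi-likelihood test over all genes was below 0.05.

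A second reference was available in the same series. The Ago2-edited lines were sequenced untransfected (Ago2KO) and with the empty plasmid (Ago2KO_empty), so (Trim71KO_empty minus Ago2KO_empty) minus (Trim71KO minus Ago2KO) compares groups that carry the same plasmid or none within each experiment. It shares all 6 Trim71-edited libraries with the main difference, and its values are set beside the main ones without a count of overlap. Ago2 itself, which encodes the Argonaute of the microRNA complex, was at 44.4, 43.1 and 40.6 CPM in Ago2KO, at 156, 137 and 143 CPM in W and at 85.3, 161 and 45.1 CPM in the libraries labelled Ago2KO_empty. The library labelled Ago2KO_empty replicate 2 was thus at the unedited level, and every value with the Ago2 reference is given with it and without it.

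Trim71 RNA was lower in the knockouts of both experiments. Trim71 (chromosome 9, 114507133 to 114564369, minus strand, GRCm38) was at 614, 616 and 634 CPM in W and 418, 422 and 467 CPM in Trim71KO. In Experiment 2 it was at 472, 483 and 494 CPM in T6B_MUT and 396, 396 and 386 CPM in Trim71KO_empty. The groups of each experiment did not overlap, and the control of Experiment 2 was lower than that of Experiment 1. The response was -0.51 ± 0.05 in Experiment 1 and -0.30 ± 0.05 in Experiment 2, with a difference of 0.21 ± 0.07 (SE; adjusted p = 0.048) that was not called in 11 of the 12 fits that left out 1 library, where the adjusted p reached 0.19. It was also not called with DESeq2 size factors (adjusted p = 0.0515), without a count filter (0.068) or with all 21 libraries in 1 edgeR fit (0.181). The RNA that remained does not bear on the protein, since the edited position was not used here. Ccr4, a chemokine receptor gene that is annotated beside Trim71 on chromosome 9, was at most 0.554 CPM in the 6 control libraries and between 31.4 and 37.4 CPM in the 6 knockout libraries. It rose by 6.64 ± 0.15 and 6.68 ± 0.15, and its difference of 0.04 was not called (adjusted p = 0.961).

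The difference was called for 2648 of 21589 genes tested (12.3%), 1286 of them positive (5.96%) and 1362 negative (6.31%). Positive means that the knockout lay higher relative to its control in Experiment 2 than in Experiment 1. The 2 responses themselves were called for 7023 genes (32.5%) in Experiment 1, of which 3553 rose (16.5% of those tested) and 3470 fell (16.1%), and for 7310 genes (33.9%) in Experiment 2, of which 3735 rose (17.3%) and 3575 fell (16.6%). With the Ago2 lines as reference the difference was called for 1610 of 22000 genes (7.32%), 4.6% positive and 2.72% negative, and without the library labelled Ago2KO_empty replicate 2 for 1209 of 22274 (5.43%), 2.59% positive and 2.83% negative. Among called differences the median size was 0.51 on the log2 scale, and 521 genes (2.41% of those tested) differed by at least 1, 387 positive and 134 negative. A called response of at least 1 was found for 1156 genes (5.35%) in Experiment 1 and 1056 (4.89%) in Experiment 2. The median standard error of the difference over all genes was 0.16.

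Most called differences did not come with called responses in opposite directions, and the direction of a response that was not called was not counted. Of the 2648 genes, 963 (36.4%) had a called response in Experiment 1 but not in Experiment 2, and 915 (34.6%) the opposite. A further 454 responded in 1 direction in both, 269 of them with a smaller response in Experiment 2 and 185 with a larger one. Called responses in opposite directions were found for 267 genes (10.1%), 121 higher in Trim71KO and lower in Trim71KO_empty and 146 the other way round. The remaining 49 had no called response in either experiment. In reverse, of 3616 genes called in 1 direction in both experiments, 2230 (61.7%) had a 95% confidence interval of the difference that lay within 0.5 of 0. Of all 21589 genes 9097 (42.1%) had such an interval. For 454 of the 3616 (12.6%) the difference was called, close to the 12.3% of all genes. Of the 3140 genes called in Experiment 1 and not in Experiment 2, the difference itself was called for 963 (30.7%), and of the 3427 called in Experiment 2 and not in Experiment 1 for 915 (26.7%).

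**Figure D1:**
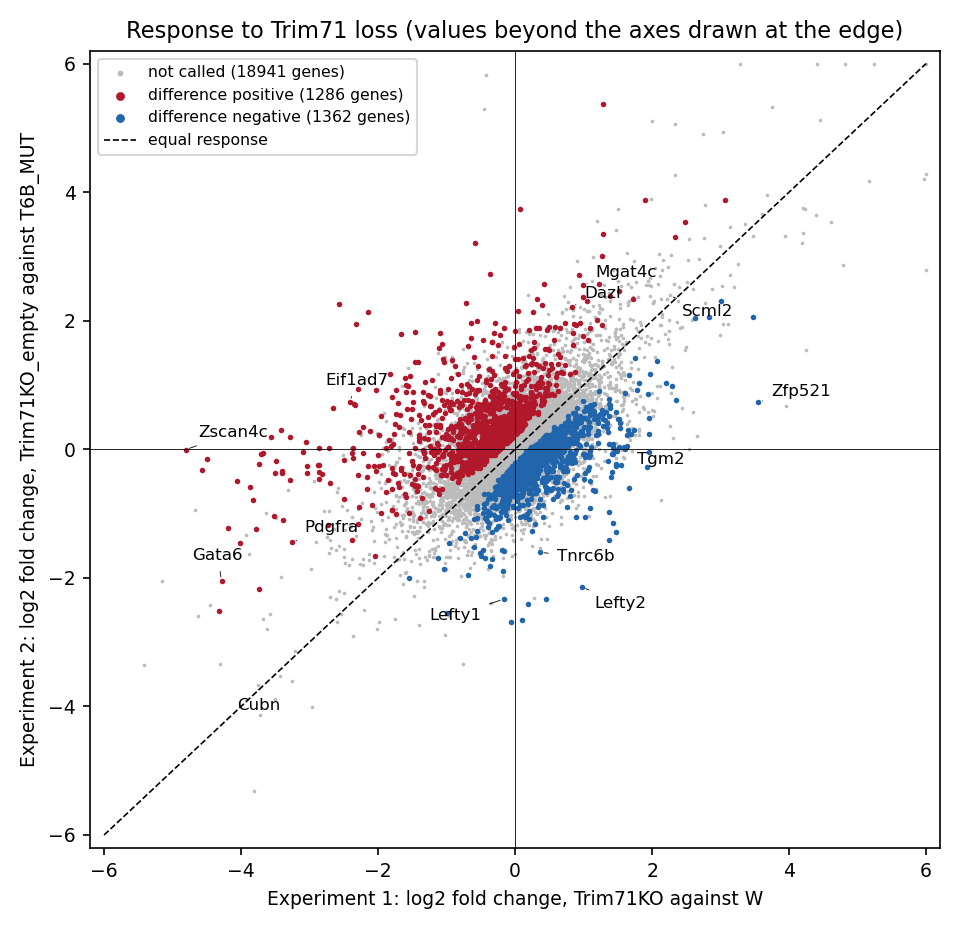
Log2 fold change of Trim71KO against W (x axis, Experiment 1) and of Trim71KO_empty against T6B_MUT (y axis, Experiment 2) for 21589 genes. Red and blue points are the 1286 positive and 1362 negative called differences, grey points were not called, and the dashed line marks equal responses; Zscan4c and Gata6 lie far above the line, Lefty2 and Zfp521 far below, and Cubn and Scml2 close to it.

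The knockout levels moved more between experiments than the control levels for 1752 of the 2648 called genes (66.2%), and the control levels moved more for 896 (33.8%). Examples of each kind follow by gene group, beginning with what both experiments shared. Where a named gene overlaps another annotated gene, as Htra1, Tgm2, Col4a1, Col4a2, Sox1, Ddit3 and others do, the share of its reads from the neighbour was not tested.

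Most mRNAs on the list of those that TRIM71 is known to repress rose in both experiments. The list held 7 genes, of which 5 rose in each experiment (16.5% and 17.3% of all genes did). The difference was negative and called for 3, E2f7, Rbl1 and Mbnl1, against the 6.31% of all genes. With all 21 libraries in 1 edgeR fit E2f7 (adjusted p = 0.107) and Mbnl1 (0.135) were not called. For none of the 7 was it positive and called, with edgeR or DESeq2 or at an unadjusted p under 0.05. The summed level of the 7 went from 134 to 135 CPM in W to between 280 and 284 CPM in Trim71KO, and from between 171 and 177 CPM in T6B_MUT to between 315 and 364 CPM in Trim71KO_empty. Mbnl1, a splicing regulator of the muscleblind family, was at 13.9, 13.5 and 13.8 CPM in W and 48.1, 46.5 and 44.2 CPM in Trim71KO, and at 15.5, 15.7 and 17.1 CPM in T6B_MUT and 42.9, 43.9 and 42.1 CPM in Trim71KO_empty. Both knockouts stood far above both controls, and the response was 1.75 ± 0.06 and then 1.42 ± 0.06, a difference of -0.34 ± 0.09 (SE; adjusted p = 0.0137). Rbl1 encodes the pocket protein p107 and behaved alike in size, with a response of 1.04 ± 0.07 and 0.66 ± 0.07 and a difference of -0.38 ± 0.10 (SE; adjusted p = 0.012). E2f7, a repressive E2F factor, rose in Experiment 1 by 0.26 ± 0.07 and gave -0.13 ± 0.07 in Experiment 2, which was not called. Plxnb2, the semaphorin receptor plexin B2, rose by 1.35 ± 0.07 and 1.21 ± 0.07, and the 95% interval of its difference ran from -0.35 to 0.07. Cdkn1a, which encodes the cell cycle inhibitor p21, was at 6.06, 4.8 and 6.84 CPM in W and 6.72, 7.86 and 7.51 CPM in Trim71KO and at 5.88, 6.37 and 6 CPM in T6B_MUT and 10.4, 6.2 and 9.04 CPM in Trim71KO_empty. Its groups overlapped in both experiments, it rose in Experiment 2 by 0.49 ± 0.15, and its difference was not called (95% interval from -0.28 to 0.63).

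Other large responses were also shared. Scml2, a Polycomb-associated gene, rose by 2.25 ± 0.10 and 2.40 ± 0.10, and Igfbp7, a secreted insulin-like growth factor binding protein, by 1.83 ± 0.14 and 1.93 ± 0.13. Egr1, an immediate early transcription factor of ERK signalling, fell by 2.57 ± 0.13 and 2.20 ± 0.17, although its control level was 11.9, 11.9 and 12.5 CPM in W and 3.06, 3.85 and 3.54 CPM in T6B_MUT. Trpm1, an ion channel gene, rose by 2.12 ± 0.12 and 1.93 ± 0.09 from control levels of 1.58, 1.52 and 1.7 and 7.26, 6.86 and 8.07 CPM. For these 4 genes the difference was not called, with 95% intervals between -0.49 and 0.85 taken over the 4.

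Most transcripts of the 2-cell-like state fell in Experiment 1, and few did in Experiment 2. Of 27 listed genes 23 could be tested. In Trim71KO 20 fell (16.1% of all genes did) and 1 rose (16.5%), and in Trim71KO_empty 1 fell (16.6%) and 6 rose (17.3%). The difference was positive and called for 21, against 5.96% of all genes. Without each library in turn 18 to 21 were called, and DESeq2 called 16. The median difference of the 23 was 3.03, against 0.00 over all genes. The summed level was 31.5 to 34.5 CPM in W, 3.46 to 4.91 CPM in Trim71KO, 36.5 to 42.2 CPM in T6B_MUT and 41.8 to 44.6 CPM in Trim71KO_empty. In bulk RNA fewer cells in a state and less RNA per cell cannot be told apart, here and for the other cell type lists. Members of the Zscan4, Usp17l and Eif1ad families have near-identical copies, so reads may have been split among them and the value of 1 member is less certain than the sum.

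Zscan4c, a zinc finger and SCAN domain gene of the 2-cell embryo, was at 4.65, 3.37 and 3.92 CPM in W and 0.127, 0.113 and 0.169 CPM in Trim71KO. In Experiment 2 it was at 5.63, 5.83 and 5.34 CPM in T6B_MUT and 5.33, 5.58 and 5.78 CPM in Trim71KO_empty. Trim71KO stood apart from all other libraries, and the groups of Experiment 2 overlapped. The difference was 4.80 ± 0.26 (SE; adjusted p = 5.71e-10), made of a response of -4.81 ± 0.22 and one of -0.01 ± 0.12. Eif1ad7, a homologue of translation initiation factor EIF1A, was at 4.76, 3.7 and 4 CPM in W, 0.815, 0.761 and 0.762 CPM in Trim71KO, 6.61, 5.45 and 6.05 CPM in T6B_MUT and 10.6, 10.5 and 9.07 CPM in Trim71KO_empty. It thus fell in Experiment 1 and rose in Experiment 2 with no overlap in either, and the difference was 3.15 ± 0.19 (SE; adjusted p = 2.13e-09). Eif1ad3 differed by 2.09 ± 0.16 (SE; adjusted p = 6.17e-08) with the same pair of directions.

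The same transcripts also differed between the untransfected and the transfected Ago2-edited libraries. Their summed level was 8.96 to 9.97 CPM in Ago2KO and 127 to 156 CPM in Ago2KO_empty, and it was 178 to 186 CPM in T6B_WT, the unedited line with the active T6B plasmid. With the Ago2 lines as reference, the median difference of the list was -0.30, with none of the 23 called by edgeR and 3 at an unadjusted p under 0.05. Without the library labelled Ago2KO_empty replicate 2 it was -0.49, with none called and 6 at an unadjusted p under 0.05. For single genes that reference gave 0.76 (adjusted p = 0.24) for Zscan4c and 0.64 (adjusted p = 0.36) without that library. Eif1ad3, which was named by the rule for the largest differences and is not on the list, was called in the negative direction with it at -0.84 (adjusted p = 0.0208), and at -1.02 (adjusted p = 0.00204) without that library.

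**Figure D2:**
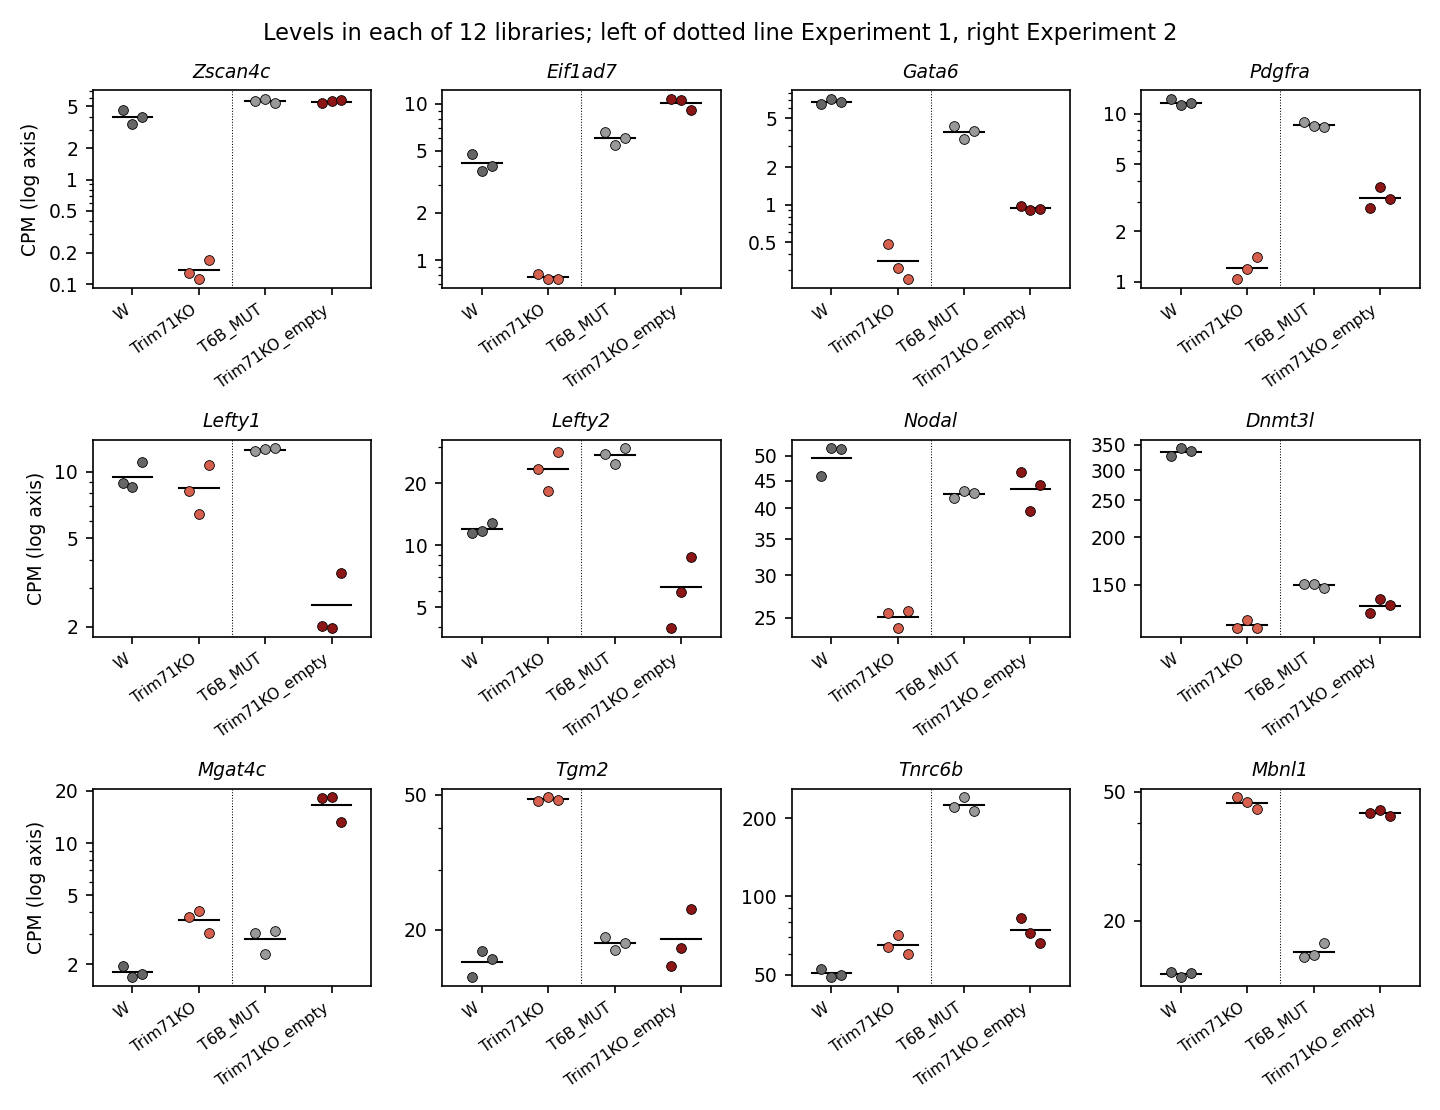
CPM (log axis) of 12 genes in each of the 12 libraries, with W and Trim71KO left of the dotted line and T6B_MUT and Trim71KO_empty right of it; points are libraries and bars are means of 3. Among these groups Zscan4c and Eif1ad7 are lowest in Trim71KO, Lefty1 and Lefty2 are low in Trim71KO_empty, Tnrc6b is high in T6B_MUT, and Mbnl1 is high in both knockouts.

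Most primitive endoderm genes fell in Trim71KO, and fewer did in Trim71KO_empty. Of 24 listed genes 23 were tested. Among these 19 fell in Experiment 1 (16.1% of all genes did) and 12 in Experiment 2 (16.6%), and 3 rose in Experiment 2 (17.3%). The difference was positive and called for 13, against 5.96% of all genes, or for 11 to 15 without each library in turn. The median response was -1.55 in Experiment 1 and -0.37 in Experiment 2, and the median difference was 0.99. Gata6, the transcription factor that sets up this lineage, was at 6.48, 7.07 and 6.79 CPM in W and 0.484, 0.31 and 0.254 CPM in Trim71KO, and at 4.34, 3.41 and 3.93 CPM in T6B_MUT and 0.981, 0.906 and 0.932 CPM in Trim71KO_empty. Its control level was lower and its knockout level higher in Experiment 2, and it fell by 4.29 ± 0.18 and 2.05 ± 0.16. The difference was 2.24 ± 0.27 (SE; adjusted p = 1.72e-05).

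Other lineage factors and a surface receptor were called in the same direction. Sox17, an endoderm SOX factor, differed by 2.57 ± 0.31 (SE; adjusted p = 1.37e-05), Gata4 by 1.55 ± 0.21 (SE; adjusted p = 5.57e-05) and Foxq1 by 1.80 ± 0.42 (SE; adjusted p = 0.00747). Pdgfra, the receptor by which primitive endoderm is often sorted, was at 12.2, 11.2 and 11.6 CPM in W and 1.04, 1.18 and 1.4 CPM in Trim71KO and at 8.96, 8.5 and 8.36 CPM in T6B_MUT and 2.77, 3.65 and 3.1 CPM in Trim71KO_empty. The 4 groups did not overlap with each other, and the difference was 1.81 ± 0.17 (SE; adjusted p = 9.74e-07). Cubn, the endocytic receptor cubilin of visceral endoderm, fell in both experiments, with responses of -3.75 ± 0.15 and -3.67 ± 0.19, with a difference of 0.08 whose 95% interval ran from -0.55 to 0.72.

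The collagen and laminin chains that primitive endoderm deposits were among the called genes. Of 21 basement membrane genes the difference was called for 9 in the positive direction (5.96% of all genes). It was called for 2 in the negative direction, Fn1 and Nid1 (6.31% of all genes). Col4a1, a type IV collagen chain, was at 153, 161 and 170.2 CPM in W and 56.5, 53.1 and 63.8 CPM in Trim71KO and at 140.0, 135 and 132 CPM in T6B_MUT and 120.1, 112 and 111 CPM in Trim71KO_empty. The knockouts were below their controls without overlap in both experiments, by far more in Experiment 1, and the difference was 1.23 ± 0.09 (SE; adjusted p = 2.13e-08). Col4a2, its partner chain that is transcribed from the same promoter region, differed by 1.41 ± 0.11 (SE; adjusted p = 9.9e-08). Lama1, the laminin alpha 1 chain, fell by 0.53 ± 0.07 in Experiment 1 and rose by 0.38 ± 0.07 in Experiment 2, and Lama5 fell by 0.33 ± 0.12 and rose by 0.57 ± 0.12.

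With the Ago2 lines as reference the median difference of the primitive endoderm list was 0.09. In each direction 2 members were called (4.6% of all genes were positive and 2.72% negative). Without the library labelled Ago2KO_empty replicate 2 the median was 0.12, with 3 positive (2.59% of all genes) and 1 negative (2.83%). Gata6 was then at 0.59 (adjusted p = 0.242) with all libraries and at 0.66 (adjusted p = 0.221) without that library. Col4a1 gave 0.20 (adjusted p = 0.284) and 0.09 (adjusted p = 0.688), and Pdgfra 0.03 (adjusted p = 0.962) and 0.16 (adjusted p = 0.747). Lama1 was called under both, at 0.38 (adjusted p = 0.0318) and 0.40 (adjusted p = 0.0213). Gata6 was at 1.53, 1.31 and 1.81 CPM in Ago2KO and 2.8, 3.3 and 2.65 CPM in Ago2KO_empty.

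In the Nodal pathway, the inhibitors Lefty1 and Lefty2 had large negative differences and the ligand Nodal a positive one. Nodal is a TGF-beta ligand of the early embryo, and Lefty1 and Lefty2 are secreted inhibitors of it that its own signalling induces. Nodal was at 45.9, 51.6 and 51.5 CPM in W and 25.5, 24 and 25.8 CPM in Trim71KO, and at 41.9, 43.1 and 42.6 CPM in T6B_MUT and 46.7, 39.5 and 44.1 CPM in Trim71KO_empty. It fell by 0.98 ± 0.07 in Experiment 1 while its groups overlapped in Experiment 2, and the difference was 1.02 ± 0.09 (SE; adjusted p = 5.85e-07). Lefty2 was at 11.5, 11.7 and 12.8 CPM in W and 23.6, 18.4 and 28.5 CPM in Trim71KO, and at 27.7, 24.9 and 29.6 CPM in T6B_MUT and 3.98, 5.95 and 8.8 CPM in Trim71KO_empty. The knockout was the higher group in Experiment 1 and the lower one in Experiment 2, without overlap in either.

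The difference of Lefty2 was -3.11 ± 0.34 (SE; adjusted p = 0.000541), made of a response of 0.97 ± 0.23 and one of -2.14 ± 0.25. Lefty1 was at 8.92, 8.52 and 11 CPM in W and 8.2, 6.43 and 10.7 CPM in Trim71KO, which overlapped, and at 12.4, 12.6 and 12.7 CPM in T6B_MUT and 2.01, 1.98 and 3.51 CPM in Trim71KO_empty, which did not. Its difference was -2.17 ± 0.29 (SE; adjusted p = 0.000384). The control level of both inhibitors was higher and the knockout level lower in Experiment 2 than in Experiment 1. With the Ago2 reference the differences of both inhibitors were also called, -2.67 (adjusted p = 0.000119) for Lefty2 and -2.10 (adjusted p = 0.000522) for Lefty1, and -2.73 (adjusted p = 0.000646) and -2.14 (adjusted p = 0.00192) without the library labelled Ago2KO_empty replicate 2. Nodal was at 0.42 (adjusted p = 0.011) with that reference and at 0.35 (adjusted p = 0.0426) without that library.

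The list of Nodal and Activin genes leaned to negative differences. Of 20 tested, the difference was called for Nodal in the positive direction (5.96% of all genes). Lefty1, Lefty2, Smad3 and Acvr1b were called in the negative one (6.31%), with 2 to 6 such calls without each library in turn. The median difference was -0.18, and 5 of the 20 were positive, called or not. In the negative direction 8 had an unadjusted p under 0.05 with edgeR. Smad3, a signal transducer of the pathway, rose by 0.72 ± 0.07 and 0.41 ± 0.07, and the difference of -0.31 ± 0.10 (SE; adjusted p = 0.0353) was not called in 8 of the 12 fits that left out 1 library. Among 17 BMP pathway genes, Id2 and Smad6 were called positive and Id4 and Smad1 negative, against the same shares of all genes. Smad6 was not called without Trim71KO_empty replicate 1 (1.40), and Id4 was not called without W replicate 2 (-0.59). Id2, a target of BMP signalling that inhibits basic helix-loop-helix factors, fell by 0.34 ± 0.11 in Experiment 1 and rose by 0.72 ± 0.10 in Experiment 2. Of 19 tested Wnt pathway and primitive streak genes 1 was called, Lef1, in the positive direction, a share near the 5.96% of all genes. Lef1, a transcriptional partner of beta-catenin, was at 5.09, 5.5 and 5.24 CPM in W and at or below 0.529 CPM in the other 9 libraries, and its difference was 2.48 ± 0.43 (SE; adjusted p = 0.000726).

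Tnrc6b was high in the control that carries the T6B_MUT plasmid. It encodes the GW182 protein from which T6B is derived. Tnrc6b (chromosome 15, 80711313 to 80941085, plus strand) was at 52.8, 49.1 and 50 CPM in W and 64, 71.3 and 60.1 CPM in Trim71KO, and at 222, 240.3 and 213 CPM in T6B_MUT and 83, 72.5 and 66.4 CPM in Trim71KO_empty. T6B_MUT stood far above the other 3 groups, and the difference was -1.97 ± 0.11 (SE; adjusted p = 1.72e-09). The 3 T6B_WT libraries, which carry the active form of the insert, were at 228, 235 and 263 CPM. Whether reads of the insert were counted on Tnrc6b was not tested, and with the Ago2 reference, where no group carries the insert, the difference was -0.45 (adjusted p = 0.314) and -0.23 (adjusted p = 0.468) without the library labelled Ago2KO_empty replicate 2.

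The other genes of the microRNA machinery differed by less. Of 13 tested, Ago1, Drosha and Tnrc6b were called in the negative direction (6.31% of all genes) and Tarbp2 in the positive one (5.96%). Ago1, an Argonaute, rose by 0.23 ± 0.06 in Experiment 1 and gave -0.14 ± 0.06 in Experiment 2, which was not called. With all 21 libraries in 1 edgeR fit the difference of Ago1 was not called (adjusted p = 0.0857). Drosha, the nuclease that cuts primary microRNAs, was at 156, 154 and 150.5 CPM in T6B_MUT and 119.9, 135 and 125 CPM in Trim71KO_empty, and its difference was -0.35 ± 0.07 (SE; adjusted p = 0.00268). Among 13 tested genes that the miR-290 and miR-302 family is known to repress, 2 were called in the negative direction (Lefty1 and Lefty2) and 1 in the positive one (Ei24). Over all genes these shares were 6.31% and 5.96%. Of 30 mRNA decay genes, among them the CCR4-NOT subunits, no difference was called by edgeR or DESeq2, 5 had an unadjusted p under 0.05, and the median was 0.00.

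Among the pluripotency regulators, the core factors responded alike. Nanog was at 348, 351 and 341 CPM in W and 551, 579 and 533 CPM in Trim71KO, and at 346, 342 and 347 CPM in T6B_MUT and 531, 523 and 537 CPM in Trim71KO_empty. It rose by 0.68 ± 0.05 and 0.62 ± 0.05 without overlap of the groups, and the 95% interval of its difference ran from -0.19 to 0.08. The same interval was from -0.17 to 0.18 for Pou5f1 and from -0.13 to 0.41 for Sox2, and neither had a called response. Of 23 naive pluripotency genes 13 rose in Experiment 1 and 12 in Experiment 2, against 16.5% and 17.3% of all genes. A called difference was found for 3, all negative, against 6.31% of all genes. Tdh, a threonine dehydrogenase highly expressed in ES cells, rose in Experiment 1 from 362, 369 and 369 to 546, 533 and 556 CPM and was at 470.0, 466 and 454 and 411, 417 and 453 CPM in Experiment 2. Its difference was -0.69 ± 0.07 (SE; adjusted p = 1.18e-06). The others were Tcl1, a coactivator of AKT, at -0.55 and Esrrb, a naive nuclear receptor, at -0.27, which was not called without T6B_MUT replicate 1 (-0.26).

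Genes of the formative and primed states went in both directions. Of 19 tested, 9 fell in each experiment, against 16.1% of all genes in Experiment 1 and 16.6% in Experiment 2. The difference was called for 3 in the positive direction (5.96% of all genes) and for 4 in the negative one (6.31%). The negative calls were 2 without T6B_MUT replicate 1 or 3 or Trim71KO replicate 3. Dnmt3l, a cofactor of the de novo DNA methyltransferases, was at 327, 342 and 337 CPM in W and 116, 121 and 116 CPM in Trim71KO, and at 151, 151 and 147 CPM in T6B_MUT and 126, 138 and 133 CPM in Trim71KO_empty. The W libraries were the high ones and the other 9 lay at or below 151 CPM. The difference was 1.33 ± 0.07 (SE; adjusted p = 5.71e-10), and it was 1.29 (adjusted p = 9.64e-10) with the Ago2 reference and 1.21 (adjusted p = 1.12e-09) without the library labelled Ago2KO_empty replicate 2. Dnmt3b and Pim2 were also called in the positive direction, at 0.44 and 0.76, and both had a lower control in Experiment 2.

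Zic5, Fgf15 and Adam19 fell in Experiment 2, below both controls and Trim71KO. Zic5, a zinc finger factor of the epiblast and neural plate, was at 7.32, 7.24 and 7.16 CPM in W and 6.62, 5.67 and 6.62 CPM in Trim71KO, and at 4.19, 4.21 and 3.6 CPM in T6B_MUT and 1.01, 1.33 and 1.7 CPM in Trim71KO_empty. It had no called response in Experiment 1 and fell in Experiment 2, with a difference of -1.38 ± 0.19 (SE; adjusted p = 8.83e-05). Fgf15, a fibroblast growth factor of the epiblast and neural tissue, fell by 0.37 ± 0.10 and 1.82 ± 0.14, and Adam19, a membrane metalloprotease, by 0.33 ± 0.10 and 1.71 ± 0.13. Their differences were -1.45 (adjusted p = 1.79e-05) and -1.37 (adjusted p = 2.23e-05). The differences of these 3 genes were also called with the Ago2 reference, -1.45 (adjusted p = 0.00666) for Zic5, -1.46 (adjusted p = 2.6e-05) for Fgf15 and -1.85 (adjusted p = 0.00176) for Adam19. Without the library labelled Ago2KO_empty replicate 2 these were -1.11 (adjusted p = 0.000904), -1.46 (adjusted p = 5.8e-05) and -1.55 (adjusted p = 4.66e-06).

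Markers of other lineages were called in part. Of 20 neural genes 11 were tested and 4 were called, all negative, against 6.31% of all genes: Zfp521, Sox1, Map2, which was not called in 8 of the 12 fits that left out 1 library, and Stmn2. Zfp521, a zinc finger factor of neural progenitors, was at 0.61, 0.565 and 0.895 CPM in W and 7.87, 8.96 and 7.6 CPM in Trim71KO, and at 1.15, 1.08 and 1.16 CPM in T6B_MUT and 2.06, 1.53 and 2.06 CPM in Trim71KO_empty. It rose in both experiments, and Trim71KO stood far above every other library. The difference was -2.82 ± 0.25 (SE; adjusted p = 3.44e-07), and with the Ago2 reference it was -2.80 (adjusted p = 2.21e-07), or -2.80 (adjusted p = 4.03e-07) without the library labelled Ago2KO_empty replicate 2. Sox1, a neuroectoderm SOX factor, rose by 0.61 ± 0.11 and fell by 0.73 ± 0.11, with a difference of -1.33 ± 0.16 (SE; adjusted p = 1.2e-05). The neural determinants Neurog1, Neurog2, Olig2 and Pax2 had too few reads to be tested. The summed level of the neural list was 324 to 343 CPM in W, 375 to 390.5 in Trim71KO, 314 to 328 in T6B_MUT and 246 to 274 in Trim71KO_empty.

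Of 10 tested mesoderm genes Kdr alone was called, in the positive direction (5.96% of all genes). Kdr, a receptor of vascular endothelial growth factor, fell by 1.00 ± 0.16 in Experiment 1 and rose by 0.75 ± 0.18 in Experiment 2. Of 9 tested fibroblast genes Col5a2 and Thy1 were called, both positive, against 5.96% of all genes, while the fibroblast genes Col3a1, Dcn, Lum, Postn, Prrx1 and Twist2 had too few reads to be tested. No difference was called by edgeR or DESeq2 among 9 tested trophoblast genes, of which 1 had an unadjusted p under 0.05 and whose median was 0.17. The sums of these 3 lists were 16.3 to 17.9, 21 to 22.5 and 83.8 to 93.2 CPM in W for mesoderm, fibroblast and trophoblast, and 17.5 to 18, 29.8 to 32.4 and 61.9 to 62.7 CPM in Trim71KO_empty. Their part in the differences above was not tested.

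Germline genes were more often positive than negative. Of 31 tested, 13 were called in the positive direction (5.96% of all genes) and 3 in the negative one (6.31%). In Experiment 1, 7 rose (16.5% of all genes did) and 13 fell (16.1%), and in Experiment 2, 14 rose (17.3%) and 3 fell (16.6%). Without each library in turn 10 to 12 were positive and 0 to 3 negative, with no negative call without T6B_MUT replicate 3, Trim71KO replicate 1 or 2, or W replicate 2 or 3. Dazl, an RNA-binding protein of germ cells, was at 20.7, 18.4 and 16.1 CPM in W and 33.1, 35.4 and 29.5 CPM in Trim71KO, and at 14.2, 13.5 and 15.5 CPM in T6B_MUT and 77.7, 64.5 and 59.4 CPM in Trim71KO_empty. It rose in both without overlap, and the Trim71KO_empty libraries were highest, with a difference of 1.40 ± 0.15 (SE; adjusted p = 2.44e-05). Taf7l, a germ cell form of a general transcription factor, rose in Experiment 2 by 1.58 ± 0.13 after 0.27 ± 0.14 in Experiment 1, which was not called. Neither was called with the Ago2 reference, at 0.48 (adjusted p = 0.0605) for Dazl and 0.22 (adjusted p = 0.53) for Taf7l, and at 0.39 (adjusted p = 0.173) and 0.10 (adjusted p = 0.82) without the library labelled Ago2KO_empty replicate 2.

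Some epithelial genes had positive differences. Of 20 keratin and junction genes the difference was called for 7 in the positive direction (5.96% of all genes) and for Cdh3 in the negative one (6.31%), and 12 were not called. Krt18, a simple epithelial keratin, fell by 1.41 ± 0.10 in Experiment 1 and by 0.29 ± 0.09 in Experiment 2, with a difference of 1.12 ± 0.14 (SE; adjusted p = 1.81e-05). Esrp1, an epithelial splicing regulator, fell from 10.8, 12.1 and 9.95 to 5.88, 5.81 and 5.48 CPM in Experiment 1 and rose by 0.36 ± 0.13 in Experiment 2. With the Ago2 reference 7 of the 20 were called, all positive (4.6% of all genes), and 5 without the library labelled Ago2KO_empty replicate 2 (2.59%). Cytoskeletal genes gave 7 positive and 4 negative calls of 27, against 5.96% and 6.31% of all genes. Without each library in turn 2 to 5 were called negative. Thbs1, the matrix glycoprotein thrombospondin 1, fell in Experiment 1 by 2.15 ± 0.17 and had a difference of 1.89 ± 0.24 (SE; adjusted p = 2.44e-05).

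More targets of p53 rose in Experiment 2 than in Experiment 1. Of 27 tested, 3 rose in Experiment 1 (16.5% of all genes did) and 14 in Experiment 2 (17.3%), and the difference was called for 10 in the positive direction (5.96% of all genes, and 7 to 12 of these without each library in turn) and for Pmaip1 in the negative one. Ccng1, the p53 target cyclin G1, was at 291, 267 and 267 CPM in W and 305, 305 and 292 CPM in Trim71KO, and at 717, 666 and 756 CPM in T6B_MUT and 1241, 1121 and 955 CPM in Trim71KO_empty. All libraries of Experiment 2 were above all of Experiment 1, and within each experiment the groups did not overlap. The response of 0.13 ± 0.07 in Experiment 1 was not called, and the difference was 0.50 ± 0.10 (SE; adjusted p = 0.00387). Mdm2, the ubiquitin ligase of p53, differed by 0.42 ± 0.10 (SE; adjusted p = 0.00999). Pmaip1, the pro-apoptotic factor NOXA, went the other way, from 72.7, 66.8 and 78.8 CPM in T6B_MUT to 29.1, 30.9 and 29.2 CPM in Trim71KO_empty, with a difference of -0.95 ± 0.09 (SE; adjusted p = 5.68e-07).

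Ccng1 was also higher in the transfected than in the untransfected Ago2-edited libraries. It was at 437, 484 and 477 CPM in Ago2KO and 1585, 1244 and 1495 CPM in Ago2KO_empty, and with the Ago2 reference its difference was 0.29 (adjusted p = 0.162), or 0.16 (adjusted p = 0.45) without the library labelled Ago2KO_empty replicate 2. Of the 27 genes, 4 were then called positive (4.6% of all genes) and 1 negative (2.72%). Without that library 1 was called in each direction (2.59% and 2.83% of all genes). Pmaip1 was called in both, at -1.29 (adjusted p = 2.21e-07) and -1.43 (adjusted p = 1.12e-09). Among the 12 libraries of the main difference, Trim71KO_empty replicate 1 was the highest for Ccng1, Mdm2, Ctsd and Sqstm1, genes that were chosen after their values were seen. Without Trim71KO_empty replicate 1, 7 p53 targets and 6 lysosomal genes had a positive call in the main difference. Leaving out T6B_MUT replicate 2 instead gave the same numbers, 7 and 6, so the fall was not particular to that library.

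More lysosomal genes rose in Experiment 2 than in Experiment 1. Of 27 tested, 10 rose in Experiment 1 (16.5% of all genes did) and 19 in Experiment 2 (17.3%). The difference was positive and called for 8, against 5.96% of all genes, and negative for none. In the negative direction 1 had an unadjusted p under 0.05 with edgeR and none was called by DESeq2. Without Trim71KO replicate 1 the number of positive calls was 5. Ctsd, the protease cathepsin D, was at 147, 158 and 158 CPM in W and 163, 165 and 167 CPM in Trim71KO, and at 336, 319.5 and 316 CPM in T6B_MUT and 616, 466 and 444 CPM in Trim71KO_empty. Its difference was 0.56 ± 0.13 (SE; adjusted p = 0.0106). Gpnmb, a transmembrane glycoprotein of lysosomes and melanosomes, was at or below 0.526 CPM in Experiment 1, at 1.56, 1.34 and 1.12 CPM in T6B_MUT and at 7.5, 4.42 and 4.03 CPM in Trim71KO_empty. It differed by 2.55 ± 0.42 (SE; adjusted p = 0.000434), and by 2.46 (adjusted p = 0.00111) with the Ago2 reference and 2.33 (adjusted p = 0.00234) without the library labelled Ago2KO_empty replicate 2. Rragd, a GTPase that links lysosomes to mTORC1, fell by 0.72 ± 0.11 and rose by 0.29 ± 0.11.

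Many lysosomal promoters carry the CLEAR element, which the factors TFEB and TFE3 bind. Its core TCACGTGA, which reads the same on both strands, was searched in RefSeq promoters (GRCm38.p6, 300 bases around the start site) of 12238 tested genes. It was in 238 of them (1.94%), and in 5 of 22 lysosomal genes with a promoter (22.7%): Ctsd, Ctsa, Gla, Mcoln1 and Atp6v0d1. Of these Ctsd alone had a called difference. The differences of Gla (0.06, adjusted p = 0.774), Mcoln1 (0.07, adjusted p = 0.763) and Atp6v0d1 (0.02, adjusted p = 0.938) were near 0. The 30 bases around it are shown for Ctsd, a called gene (chr7:142387908-142387937, minus strand), and for Ctsa, a lysosomal carboxypeptidase whose difference of 0.30 was not called (adjusted p = 0.0808; chr2:164833749-164833778, plus strand), with the core in capitals:
Ctsd: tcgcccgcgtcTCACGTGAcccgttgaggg
Ctsa: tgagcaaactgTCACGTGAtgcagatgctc
A match of the letters is a description and says nothing about binding.

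Stress genes of other kinds were called in different shares, against 5.96% positive and 6.31% negative calls over all genes. Of 20 unfolded protein response genes 6 were called, all positive, and 3 without Trim71KO replicate 1 or without W replicate 3. The difference was positive, called or not, for 19 of the 20. Dnajb9, a chaperone of the endoplasmic reticulum, was at 0.61 (adjusted p = 0.00282). Of 28 integrated stress response genes 5 were positive and 3 negative, and the positive calls ranged from 2 to 8 without each library in turn. Ddit3, which encodes the stress factor CHOP, was between 5.88 and 7.15 CPM in Experiment 1 and at 42.9, 42 and 44.1 CPM in T6B_MUT and 88.5, 67.5 and 65.4 CPM in Trim71KO_empty, with a difference of 0.67 ± 0.14 (SE; adjusted p = 0.00381). Mt1, a metal-binding metallothionein, was at 46.5, 49.8 and 48.9 CPM in W, 50.1, 51.7 and 59.6 CPM in Trim71KO and 48.4, 47.5 and 49.8 CPM in T6B_MUT, and at 113, 95.4 and 95.8 CPM in Trim71KO_empty. Trim71KO_empty was the high group, and the difference was 0.91 ± 0.10 (SE; adjusted p = 5.32e-06), with 0.88 (adjusted p = 1.89e-05) from the Ago2 reference and 0.78 (adjusted p = 5.8e-05) without the library labelled Ago2KO_empty replicate 2. Of the immediate early genes, 4 of 28 were positive and 2 negative. Jun, the AP-1 subunit, was at 16.1, 8.64 and 9.1 CPM in Trim71KO_empty against 6.21, 6.08 and 5.83 CPM in T6B_MUT, with a difference of 1.47 ± 0.29 (SE; adjusted p = 0.00502). Jun was at 0.99 (adjusted p = 0.0269) with the Ago2 reference, and at 0.89 (adjusted p = 0.0689) without the library labelled Ago2KO_empty replicate 2.

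Most DNA replication genes fell in Experiment 2. Of 24 tested, 5 rose (16.5% of all genes did) and 5 fell (16.1%) in Experiment 1, and 1 rose (17.3%) and 16 fell (16.6%) in Experiment 2. The difference was negative and called for 11, against 6.31% of all genes, and positive for none. Rrm2, the ribonucleotide reductase subunit that supplies deoxynucleotides, was at 219, 226 and 221 CPM in W and 250.1, 257 and 254 CPM in Trim71KO, and at 157, 149.9 and 159 CPM in T6B_MUT and 92.7, 109.5 and 118 CPM in Trim71KO_empty. It rose in Experiment 1 and fell in Experiment 2 without overlap, and the difference was -0.73 ± 0.09 (SE; adjusted p = 2.55e-05). Ccne1, the G1 cyclin E1, fell in both, by 0.97 ± 0.10 and 1.46 ± 0.10, and its difference of -0.49 ± 0.14 (SE; adjusted p = 0.0407) was not called in 10 of the 12 fits that left out 1 library. Of 22 mitosis genes 2 were called, Top2a and Ccna2, both negative, a share not far above the 6.31% of all genes. They were not called in 6 and 2 of those fits. With the Ago2 reference 1 of the 24 replication genes was called, Rrm2, in the negative direction (2.72% of all genes). Its value was -0.55 (adjusted p = 0.00188), and -0.51 (adjusted p = 0.00253) without the library labelled Ago2KO_empty replicate 2. The number of replication genes called was 6 without T6B_MUT replicate 1 or W replicate 2, 7 without T6B_MUT replicate 2, Trim71KO replicate 1 or W replicate 3, and up to 13 in the other fits that left out 1 library. None had a positive difference at an unadjusted p under 0.05 with edgeR or a positive call with DESeq2.

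E2F factors, which Rbl1 and E2f7 oppose, act on many replication promoters. The E2F letters TTTGGCGC or TTTCCCGC, on either strand, were in 399 of the 12238 promoters (3.26%) and in 7 of 19 replication genes with a promoter (36.8%): Mcm5, E2f2, Mcm3, Mcm6, Mcm7, Cdc6 and Cdt1. Of these Mcm5 and E2f2 had a called difference. Mcm5, a subunit of the replicative helicase, differed by -0.25 ± 0.07 (SE; adjusted p = 0.019) and was not called without T6B_MUT replicate 1 (-0.23), without W replicate 1 (-0.22) or with all 21 libraries (-0.25), and its site with 30 bases in all (chr8:75109349-75109378, plus strand) is shown with the match, which lies on the opposite strand, in capitals:
Mcm5: caagaactttcGCGCCAAAacgtccagcct
Those letters are not known from these data to be bound by any factor.

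Metabolic lists held called genes in both directions, against 5.96% positive and 6.31% negative calls over all genes. Of 95 nuclear genes of the respiratory chain 35 fell in Experiment 2 (16.6% of all genes did) and 10 in Experiment 1 (16.1%). A called difference was found for 8, all negative, a share not far above that of all genes. These lay between -0.39 for Cox6c, a subunit of cytochrome oxidase, and -0.23 for Atp5o, a subunit of ATP synthase. Those calls ranged from 3, without T6B_MUT replicate 3 or W replicate 2, to 14, without Trim71KO_empty replicate 3. In fatty acid synthesis 4 of 14 were negative, among them Acss2, which makes acetyl-CoA from acetate, at -0.91 (adjusted p = 0.000158), and Scd1 was positive. Of 36 hypoxia and glycolysis genes 7 were positive and 5 negative (2 to 10 without each library in turn), and Pdk1, a kinase that restrains pyruvate dehydrogenase, was at 229.6, 220.2 and 232 CPM in T6B_MUT and 119, 165 and 158 CPM in Trim71KO_empty, a difference of -0.73 ± 0.12 (SE; adjusted p = 0.000828). Of 25 cholesterol synthesis genes 1 was called, Hsd17b7, at -0.37, and not in 5 of the 12 fits that left out 1 library.

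Further large differences fell outside these lists. Mgat4c, a glycosyltransferase gene, was at 1.96, 1.7 and 1.75 CPM in W and 3.74, 4.03 and 3.03 CPM in Trim71KO, and at 3.02, 2.3 and 3.09 CPM in T6B_MUT and 18.3, 18.3 and 13.3 CPM in Trim71KO_empty. It rose in both and most in Experiment 2, with a difference of 1.57 ± 0.22 (SE; adjusted p = 8.65e-05). Efr3b, a membrane protein that anchors a phosphatidylinositol kinase, was at 26.2, 21.8 and 17.7 CPM in Trim71KO_empty and at most 7.75 CPM in the other 9 libraries, with a difference of 2.00 ± 0.18 (SE; adjusted p = 6.2e-07). Wnt6, a Wnt ligand, was likewise highest in Trim71KO_empty, at 9.61, 7.08 and 8.06 CPM, and differed by 1.79 ± 0.24 (SE; adjusted p = 0.00012). With the Ago2 reference these were 1.43 (adjusted p = 0.000724) for Mgat4c, 1.69 (adjusted p = 3.85e-06) for Efr3b and 1.64 (adjusted p = 0.000197) for Wnt6, and 1.30 (adjusted p = 0.00184), 1.65 (adjusted p = 5.75e-06) and 1.51 (adjusted p = 0.00067) without the library labelled Ago2KO_empty replicate 2.

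Genes with opposite responses included Htra1, Rnf128 and Efnb2. Htra1, a secreted serine protease, was at 27.7, 28.2 and 29.4 CPM in W and 14.9, 15.8 and 16.6 CPM in Trim71KO, and at 21.2, 20.6 and 22.2 CPM in T6B_MUT and 38.8, 36.6 and 31.9 CPM in Trim71KO_empty. It fell in the first pair and rose in the second without overlap, with a difference of 1.59 ± 0.10 (SE; adjusted p = 4.19e-09). Efnb2, the ligand ephrin-B2, fell by 0.93 ± 0.11 and rose by 0.74 ± 0.12, and Rnf128, a ubiquitin ligase, fell by 0.64 ± 0.12 and rose by 0.75 ± 0.11. In the other direction Klhl23, a BTB-kelch protein, rose by 0.86 ± 0.10 and fell by 0.46 ± 0.11, Srl, a calcium-binding protein of the sarcoplasmic reticulum, rose by 0.62 ± 0.10 and fell by 0.69 ± 0.10, and Fndc4 rose by 0.29 ± 0.09 and fell by 1.17 ± 0.10. Igf2bp3, an oncofetal RNA-binding protein, rose by 0.55 ± 0.06 and fell by 0.61 ± 0.06, a difference of -1.16 ± 0.08 (SE; adjusted p = 1.04e-08).

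Tgm2 and Dock10 had a called response in Experiment 1, none in Experiment 2, and a called difference. Tgm2, a transglutaminase, was at 14.5, 17.3 and 16.3 CPM in W and 48.1, 49.1 and 48.2 CPM in Trim71KO, and at 19.06, 17.4 and 18.2 CPM in T6B_MUT and 15.7, 17.6 and 23 CPM in Trim71KO_empty. Trim71KO was the high group and the other 9 libraries lay between 14.5 and 23 CPM, and the difference was -1.56 ± 0.14 (SE; adjusted p = 1.82e-06). Dock10, a guanine nucleotide exchange factor, was at 8.27, 6.91 and 6.03 CPM in W and 20.5, 19.3 and 17.1 CPM in Trim71KO, and at 21.6, 23.2 and 23 CPM in T6B_MUT and 20.3, 22.8 and 21.2 CPM in Trim71KO_empty. There W was the low group, and the difference was -1.50 ± 0.13 (SE; adjusted p = 4.59e-07). A difference of similar size thus came with a knockout level apart for Tgm2 and with a control level apart for Dock10.

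**Figure D3:**
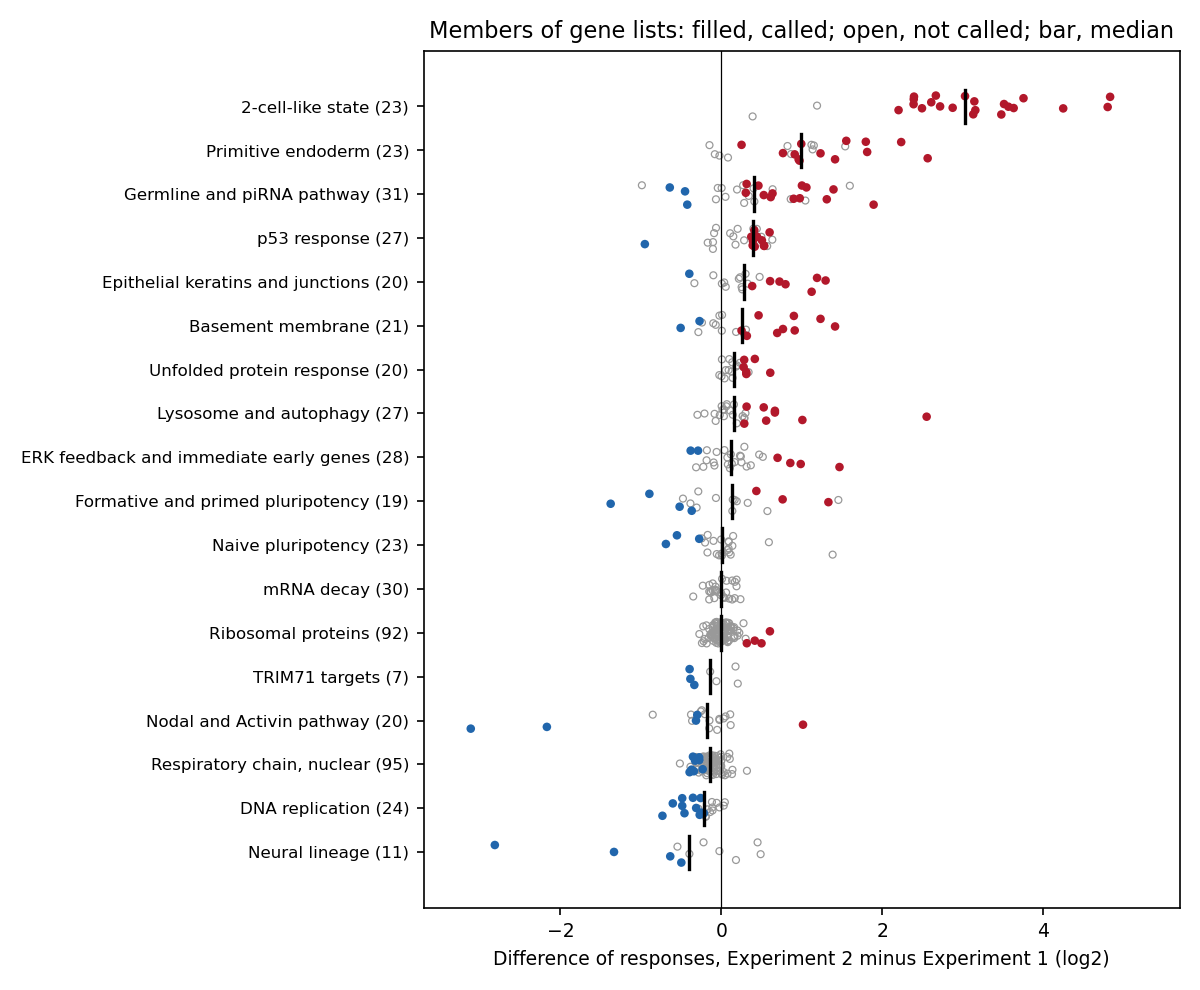
Difference of the responses (log2, Experiment 2 minus Experiment 1) for each member of 18 gene lists, with the number tested in parentheses; filled points were called, open points were not, and bars are medians. The 2-cell-like list lies furthest right with a median of 3.03, and the mRNA decay list is centred on 0 with no called member.

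Whether control or knockout levels moved between experiments differed by list. For the 2-cell-like genes the median shift was -0.10 between the controls and 2.25 between the knockouts, on a log2 scale with 0.05 CPM added. For primitive endoderm the controls shifted by -0.55 and the knockouts by 0.35, in opposite directions. Lysosomal genes shifted by 0.59 and 0.81, and formative genes by -1.14 and -0.94. Replication-dependent histone genes had similar median shifts in both, -1.27 and -1.29. Of 67 tested none had a difference called by edgeR or DESeq2 and none an unadjusted p under 0.05. Their summed level varied widely within groups, from 9777 to 19170 CPM in Trim71KO and from 4272 to 7858 CPM in Trim71KO_empty. The median difference ran from -0.39 to 0.26 over the fits that left out 1 library, so the lack of calls does not show equal responses. A shift shared by control and knockout cancels in the difference by construction.

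**Figure D4:**
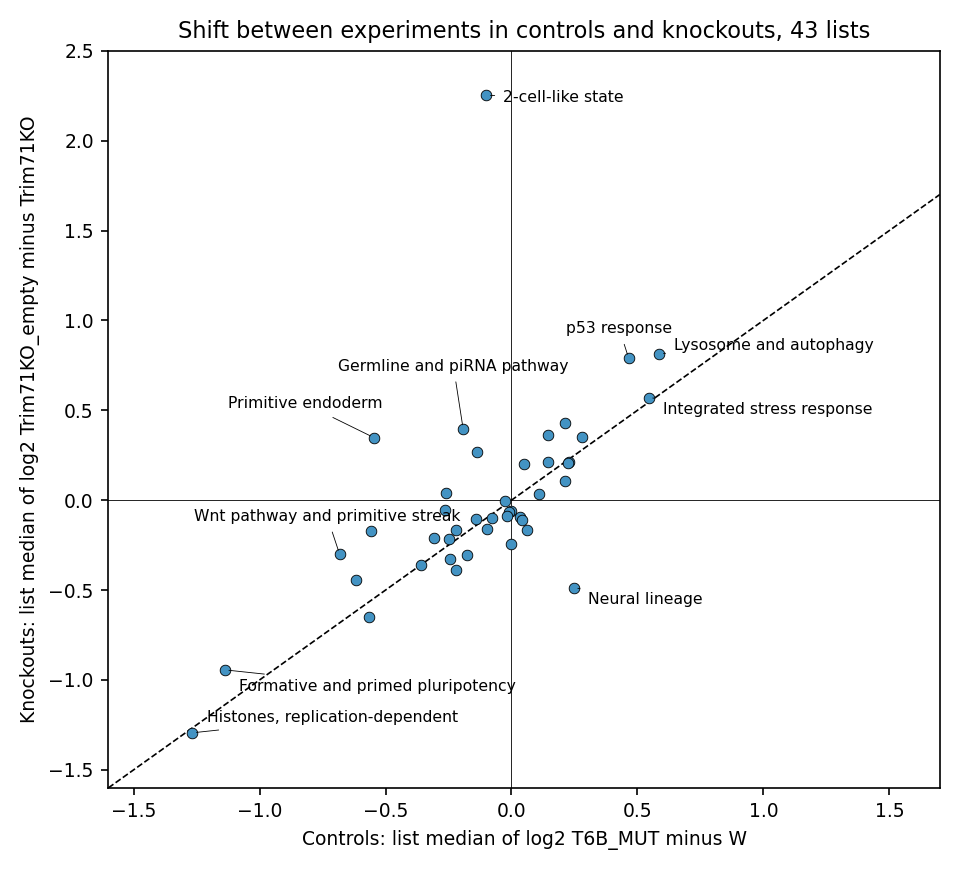
Median log2 shift between experiments of 43 gene lists in the controls (x axis, T6B_MUT minus W) and in the knockouts (y axis, Trim71KO_empty minus Trim71KO); the dashed line marks equal shifts. Histone and formative genes lie low near the line, the 2-cell-like list lies far above it at a knockout shift of 2.25, and the neural list lies below it.

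The remaining lists were called in different shares, against 12.3% of all genes, 5.96% positive and 6.31% negative. Ribosomal protein genes gave 4 positive calls of 92 (9 without Trim71KO replicate 3 and 7 without Trim71KO_empty replicate 2) and no negative ones with edgeR or DESeq2, with 7 negative at an unadjusted p under 0.05, Polycomb genes 3 positive of 25, DNA methylation genes 3 positive and 2 negative of 15, imprinted genes 4 and 3 of 24, interferon genes 5 and 3 of 32, heat shock genes 2 and 1 of 15, and metallothionein and NRF2 genes 4 and 3 of 15. Splicing regulators gave 2 positive and 3 negative calls of 19, Lin28-related genes 4 and 3 of 15, plexins and semaphorins 3 and 5 of 29, and genes near Trim71 2 and 0 of 16. Several of these counts moved without single libraries: over the 12 fits that left out 1 library, positive calls ranged from 0 to 3 for Lin28-related genes, from 0 to 2 near Trim71, from 1 to 4 for imprinted, from 2 to 4 for interferon and from 1 to 4 for Polycomb genes. Negative calls ranged from 1 to 4 for heat shock, from 1 to 2 for DNA methylation, from 2 to 5 for Lin28-related genes, from 3 to 5 for splicing regulators and from 0 to 6 for ribosomal genes. The 12 genes of the mitochondrial genome had no called difference with edgeR or DESeq2 and 3 at an unadjusted p under 0.05. Of these 12, 6 rose in Experiment 2 (17.3% of all genes did) and 2 in Experiment 1 (16.5%).

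Differences were spread unevenly over the chromosomes. Of 1073 tested genes of chromosome 8 the difference was called for 182 (17%), 153 negative and 29 positive, and of 1000 genes of chromosome 10 for 176 (17.6%), 136 positive and 40 negative. Over all genes 12.3% were called, 5.96% positive and 6.31% negative. The median difference was -0.112 for chromosome 8 and 0.086 for chromosome 10, and the other autosomes lay between -0.037 and 0.041. The chromosome 8 median was 0.189 in the response of Experiment 1 and 0.082 in that of Experiment 2. By library it was between 0.203 and 0.242 in the 3 Trim71KO libraries and between 0.086 and 0.111 in the 3 Trim71KO_empty libraries, which did not overlap. Among the 900 tested X-linked genes 138 were called (15.3%), 88 negative and 50 positive, with a median of -0.058. The share of positive calls there was near that of all genes. Whether the number of chromosomes 8 per cell differed between the groups was not tested, and genes of 1 chromosome are not independent replicates.

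**Figure D5:**
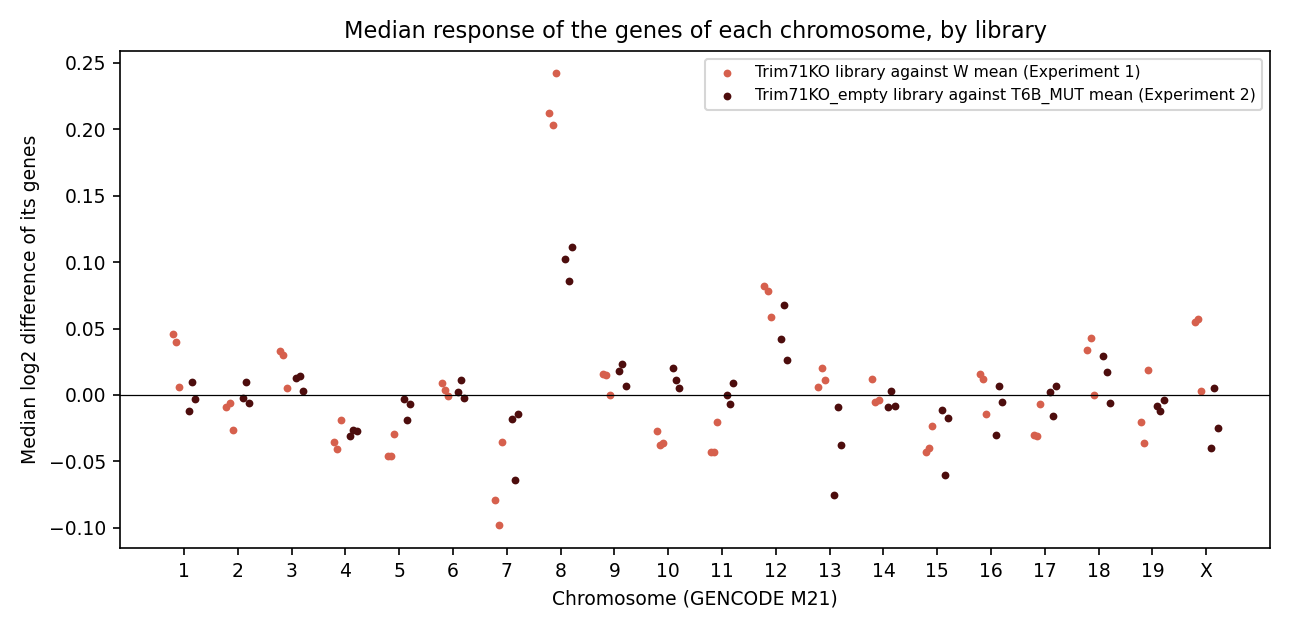
Median log2 difference of the genes of each chromosome in each knockout library from the mean of its control group, with Trim71KO libraries in the lighter and Trim71KO_empty libraries in the darker colour. Chromosome 8 stands out in both, at 0.203 to 0.242 in Experiment 1 and 0.086 to 0.111 in Experiment 2.

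The share of genes called differed by length and class. Of genes under 500 bases 4.57% were called, and of genes over 8000 bases 18.5%, with median differences of -0.002 and -0.005. Whether these shares follow the number of reads per gene was not tested. Protein-coding genes were called in 15.7% of cases and processed pseudogenes in 5.36%, 50 positive and 143 negative.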

How the data were processed

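RNA-seq was analysed in 12 of 21 libraries, 3 per group, with 6 others as a second reference and 3 T6B_WT libraries for levels and 1 alternative. Per the labels' protocols, column-purified, DNase-treated RNA went into stranded total RNA libraries. The submitters' processing notes list STAR 2.7.3a, bcl2fastq 2.17 and the GRCm38 build with no role given, and whether counting used strand is not given in the sources used here. The authors deposited 1 table of 22512 genes with raw counts, RPKM values and gene lengths, per the file headers. The deposited counts were whole numbers that were not normalized, and the deposited RPKM values were not tested. Gene names and positions came from GENCODE M21, which held 22480 of the gene identifiers.

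Counts were tested with edgeR 4.0.16 (robust quasi-likelihood F test, TMM scaling, filterByExpr with a minimum count of 10) in R 4.3.3, with 1 mean per group, Benjamini-Hochberg adjustment over all 21589 genes that passed and a threshold of 0.05. The difference was the contrast of the 2 responses in 1 fit, and its SE was the absolute log2 value divided by the square root of F. The Ago2 reference used 18 libraries. CPM of Ago2-edited and T6B_WT libraries came from a scaling over all 21 libraries, and CPM of the 12 others from their own. The test was run on simulated counts with known changes. Depth was 33910145 to 57872324 counts per library, and low genes are the least precise.

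Named genes were the 12 largest called differences in each direction that held when each library was left out, averaging 2 or more in log2 CPM, the 6 largest opposite and the 6 largest shared responses, and up to 4 called members of each of 43 gene lists. Pou5f1, Sox2, Nanog, Ccng1, Ctsd, Sqstm1, Cdkn1a, Rbl2, Plxnb2, Mbd2, Mdm2 and Mcm5 were added after their values were seen, as were genes given as the ends of a range. The comparison, the members and the lists were chosen with earlier results of these data known. Lists were described by counts and medians, with no test. Alternatives were 2 other scalings, DESeq2 1.42.0, no or a stricter count filter, all 21 libraries in 1 fit, a gene length correction, a replicate block, a minimum change and each library left out.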

Additional observations from a re-analysis of the deposited data

Results flagged for a closer look

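Genes named for the largest or opposite responses, and Trim71, differed between the experiments by the test of the difference itself, and each is given here as a value with the difference from the Ago2 reference in parentheses, first with all its libraries and then without the one labelled Ago2KO_empty replicate 2, and both adjusted p-values of edgeR's test. No explanation was tested for any of them.

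In the positive direction the differences were 3.15 for Eif1ad7 (-0.30 and -0.49, adjusted p = 0.5 and 0.18), 2.09 for Eif1ad3 (-0.84 and -1.02, adjusted p = 0.0208 and 0.00204), 2.00 for Efr3b (1.69 and 1.65, adjusted p = 3.85e-06 and 5.75e-06), 1.81 for Pdgfra (0.03 and 0.16, adjusted p = 0.962 and 0.747), 1.79 for Wnt6 (1.64 and 1.51, adjusted p = 0.000197 and 0.00067) and 1.67 for Efnb2 (0.50 and 0.60, adjusted p = 0.198 and 0.117). They were 1.59 for Htra1 (1.35 and 1.28, adjusted p = 5.03e-08 and 7.99e-08), 1.57 for Mgat4c (1.43 and 1.30, adjusted p = 0.000724 and 0.00184), 1.55 for Gata4 (0.72 and 0.89, adjusted p = 0.106 and 0.0299), 1.53 for Itga8 (1.14 and 0.97, adjusted p = 0.00292 and 0.00687), 1.48 for Megf11 (0.87 and 0.88, adjusted p = 0.00467 and 0.00611), 1.47 for Jun (0.99 and 0.89, adjusted p = 0.0269 and 0.0689), 1.38 for Rnf128 (1.20 and 1.14, adjusted p = 3.18e-05 and 8.69e-05) and 0.21 for Trim71 (0.01 and 0.08, adjusted p = 0.967 and 0.635). Without the library labelled Ago2KO_empty replicate 2, Gata4 was called with the Ago2 reference and Jun was not, and for the other genes given here the call was the same.

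In the negative direction they were -3.11 for Lefty2 (-2.67 and -2.73, adjusted p = 0.000119 and 0.000646), -2.17 for Lefty1 (-2.10 and -2.14, adjusted p = 0.000522 and 0.00192), -1.97 for Tnrc6b (-0.45 and -0.23, adjusted p = 0.314 and 0.468), -1.56 for Tgm2 (-0.83 and -0.79, adjusted p = 0.00323 and 0.00841), -1.50 for Dock10 (-1.13 and -1.14, adjusted p = 1.89e-05 and 1.75e-05) and -1.46 for Fndc4 (-1.17 and -1.29, adjusted p = 0.000149 and 5.58e-05). They were -1.45 for Fgf15 (-1.46 and -1.46, adjusted p = 2.6e-05 and 5.8e-05), -1.38 for Zic5 (-1.45 and -1.11, adjusted p = 0.00666 and 0.000904), -1.37 for Adam19 (-1.85 and -1.55, adjusted p = 0.00176 and 4.66e-06), -1.33 for Sox1 (-0.52 and -0.47, adjusted p = 0.0516 and 0.0875), -1.32 for Klhl23 (-0.77 and -0.73, adjusted p = 0.00848 and 0.0175) and -1.31 for Srl (-1.25 and -1.10, adjusted p = 0.000116 and 6.99e-05).

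Tnrc6b was also high in T6B_WT, a group outside the comparison, with a mean of 242 CPM against 50.6 CPM in W.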

How the results depend on the processing

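The number of called differences, 2648, was 2662 with DESeq2 size factors, 2616 with upper quartile scaling, 2753 with the DESeq2 Wald test, 2730 without a count filter, 2699 with CPM over 1, 2237 with all 21 libraries and 2897 with the length trend removed. With a replicate block it was 2609. Deviations of same-numbered libraries correlated at 0.41, -0.26 and 0.68 in Experiment 1 and at -0.06, -0.13 and -0.06 in Experiment 2. Differently numbered libraries reached 0.61 in Experiment 1, for W replicate 1 and Trim71KO replicate 2. Whether the numbers mark a shared day or batch cannot be told from these values. A minimum change of 1 left 521 differences (387 positive, 134 negative), 1156 responses in Experiment 1 (525, 631) and 1056 in Experiment 2 (711, 345). With 1 library left out there were 1828 to 2920 differences (855 to 1426 positive, 929 to 1629 negative), 5582 to 7338 responses in Experiment 1 and 5530 to 7793 in Experiment 2. The lowest positive count, 855, was without Trim71KO replicate 1. For the Ago2 reference the range was 889 (without Ago2KO replicate 1) to 2801 (without Ago2KO_empty replicate 3) around 1610. Counts past 1.5 times came also without Ago2KO replicate 3 (1017), Trim71KO replicate 1 (935) and 2 (1048) and Trim71KO_empty replicate 1 (961). Of the 2648 called genes 1500 (56.6%) were called in all 12 fits that left out 1 library. No named gene with a call turned direction under these settings, and 164 of 3420 values of single genes lost their call. Low genes, members of gene families and genes under 500 bases are limited most by depth or by shared reads.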
